A study of Homo sapiens with 16 samples.

Results

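The SR and HNRNP splicing factors were followed at the RNA level in 4 bladder cancer cell lines treated with CM-1758, a histone deacetylase inhibitor. Members were taken by name, as every row of the count matrix whose symbol is SRSF and a number or starts with HNRNP, without pseudogene names (107 left out) and antisense names (0 found). This gave 36 of 35993 rows, made of 12 SRSF genes and 24 HNRNP genes. Of these, 35 had enough counts to be tested and 32 had a mean of at least 10 CPM (counts relative to the library's total, scaled by TMM factors) over the 16 libraries. Of the 35 tested members, 18 were lower after CM-1758 in each of the 4 lines and none was higher in each of the 4 lines.

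SR proteins bind exonic enhancers through RNA recognition motifs and recruit the spliceosome through domains rich in arginine and serine, so that they mostly favour inclusion of the exon they bind. The hnRNP proteins coat nascent RNA and often act at silencers, against the SR proteins, and many of them also serve in RNA export, stability or translation. Both groups are abundant in dividing cells, and several of their genes regulate themselves through alternative exons or introns whose use sends the transcript to nonsense-mediated decay.

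The lines 253J, J82, RT112 and TCCSUP are established lines from human bladder cancer, each labelled wild type. In each line, 2 libraries from cells given CM-1758 for 48 h, at the IC50 of that line, stood beside 2 libraries from control cells. The controls are listed here with the vehicle, DMSO at 0.01%, while the study's captions for the RNA sequencing call them untreated. The dose therefore differed between lines, so dose and line cannot be told apart. The lines 253J, J82 and RT112 were grown in DMEM GlutaMAX and TCCSUP in EMEM, so medium and line cannot be told apart either. Each line serves as 1 model with 2 libraries a group from separate experiments. Total counts ran from 22506431 to 32537104 per library, and 7 abundant small noncoding RNA genes took 9.58% to 13.2% of control counts and 10.2% to 21.3% of CM-1758 counts. The J82 replicates differed most from each other (chi-square per degree of freedom 67.1 in the control pair and 46.1 in the CM-1758 pair, against 10.9 to 20.6 elsewhere). Of 16 urothelial and epithelial markers, 15 reached 1 CPM in the RT112 controls, 10 in TCCSUP, 8 in J82 and 7 in 253J. UPK2, UPK3A and KRT5 were at 0 in all 253J and J82 libraries, whereas KRT8, KRT18 and KRT19 were detected in all of them. KRT18 stood at 2795 and 1857 CPM in the 253J controls and 1556 and 2133 in the J82 controls. Of 8 markers of other cell types, 1 to 4 reached 1 CPM in a library, and their summed level ran from 6.70 to 68.6 CPM.

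The stretch around the transcription start, 250 bases before to 50 after, is printed for 4 members that the results turn on: SRSF1, with the largest single fall, HNRNPH1 and its close relative HNRNPH2, which moved apart, and HNRNPLL, whose change differed most between lines. The sequences are RefSeq's on GRCh38.p14, 5′ to 3′ on the gene's strand. Where a gene has several such windows, the one that holds most GENCODE v29 transcript starts is shown (18 of 50 transcripts for HNRNPH1). The window shown held 7 of 9 GENCODE starts for SRSF1, 5 of 12 for HNRNPLL and 0 of 1 for HNRNPH2. Capitals mark 4 motifs, found on either strand. The E-box has the letters CACGTG and the CCAAT box those of its name. The GC box was searched as GGGCGG and the ETS motif as CCGGAA.
SRSF1, chr17:58007197-58007496 (- strand): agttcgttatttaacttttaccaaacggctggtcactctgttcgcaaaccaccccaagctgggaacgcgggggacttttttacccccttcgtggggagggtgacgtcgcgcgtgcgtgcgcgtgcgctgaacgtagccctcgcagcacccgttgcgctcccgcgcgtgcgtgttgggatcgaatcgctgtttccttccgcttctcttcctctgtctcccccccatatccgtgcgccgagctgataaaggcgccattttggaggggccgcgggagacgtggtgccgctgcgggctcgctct
HNRNPH1, chr5:179623622-179623921 (- strand): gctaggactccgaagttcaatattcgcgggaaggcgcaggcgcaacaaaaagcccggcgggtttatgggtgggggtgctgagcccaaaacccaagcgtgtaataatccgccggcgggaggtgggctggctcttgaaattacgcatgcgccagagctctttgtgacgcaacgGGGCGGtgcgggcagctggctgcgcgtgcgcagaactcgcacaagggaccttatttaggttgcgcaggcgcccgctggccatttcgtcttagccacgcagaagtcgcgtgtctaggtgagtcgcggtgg
HNRNPH2, chrX:101407972-101408271 (+ strand): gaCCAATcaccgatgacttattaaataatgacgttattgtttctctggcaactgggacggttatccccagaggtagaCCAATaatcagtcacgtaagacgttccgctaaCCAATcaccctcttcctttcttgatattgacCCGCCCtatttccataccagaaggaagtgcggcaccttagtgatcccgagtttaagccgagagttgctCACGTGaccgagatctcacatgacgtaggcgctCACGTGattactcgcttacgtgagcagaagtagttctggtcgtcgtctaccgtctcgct
HNRNPLL, chr2:38602879-38603178 (- strand): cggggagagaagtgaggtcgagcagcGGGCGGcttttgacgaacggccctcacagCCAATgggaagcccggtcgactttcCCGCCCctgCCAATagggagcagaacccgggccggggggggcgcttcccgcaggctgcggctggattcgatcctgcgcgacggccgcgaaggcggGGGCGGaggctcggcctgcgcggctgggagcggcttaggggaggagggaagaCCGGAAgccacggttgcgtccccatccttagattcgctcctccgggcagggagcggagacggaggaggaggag
The SRSF1 window held none of these motifs and that of HNRNPH1 held 1 GC box. The HNRNPH2 window held 2 E-boxes, 3 CCAAT boxes and 1 GC box, and that of HNRNPLL held 2 CCAAT boxes, 3 GC boxes and 1 ETS motif. Over the 48 windows of the 34 members with an entry (SRSF2 and HNRNPA1 had none), 16.7% held an E-box, 52.1% a CCAAT box, 60.4% a GC box and 18.8% an ETS motif, beside 7.26%, 34.6%, 45.0% and 17.2% of all 35116 windows. Several members have more than 1 window, and some of these overlap, as for HNRNPDL, so a member can count more than once. The motif hits are letter matches only, and none of the 16 libraries measured binding.

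The first question was whether the splicing factors changed under CM-1758 in each line. With edgeR (quasi-likelihood test, Benjamini-Hochberg adjusted p under 0.05 over all tested genes), 24, 23, 23 and 24 of the 35 tested members were lower in 253J, J82, RT112 and TCCSUP. Among all 21297 tested genes, the share lower was 22.4%, 18.5%, 20.2% and 22.1% in the same order, and among the 10636 with a mean of at least 10 CPM it was 35.2%, 30.2%, 33% and 36.2%. All the members called lower had a mean of at least 10 CPM. In those lines 3, 2, 0 and 2 members were called higher, beside 28.8%, 24%, 27.4% and 32% of all tested genes. The TCCSUP count includes HNRNPCL1, which passed the count filter only through the CM-1758 libraries of that line. In RT112 no member was higher at an unadjusted p under 0.05 either, whereas DESeq2 on all groups called 1 (the readthrough gene HNRNPUL2-BSCL2) and DESeq2 on that line alone called 0. The members' median log2 fold changes were -0.94, -0.63, -0.53 and -0.69 in 253J, J82, RT112 and TCCSUP, where the medians of all tested genes were 0.10, 0.05, 0.12 and 0.20. With library size alone as the scale, without a composition factor, the all-gene medians moved up to 0.37, 0.19, 0.27 and 0.51, the members' medians were -0.67, -0.49, -0.39 and -0.38, and the TCCSUP members split into 16 lower and 5 higher in place of 24 and 2. In bulk RNA, fewer cells of a kind and less RNA per cell cannot be told apart. All levels are relative to the rest of a library's RNA, on the TMM scale unless stated.

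Both families contributed to the fall. In 253J, J82, RT112 and TCCSUP, 8, 8, 10 and 9 of the 12 SRSF genes were lower, as were 16, 15, 13 and 15 of the 23 tested HNRNP genes. When a change of at least 2-fold was also required, 15, 6, 8 and 7 members were lower (13.4%, 7.37%, 8.24% and 11.6% of all tested genes) and 2, 1, 0 and 2 higher (20.2%, 17.5%, 20.4% and 24%). The 1 higher in J82, SRSF12, had 0 and 0 against 4 and 4 counts, only at least 1.25-fold above a floor of 3 counts. At the thresholds of the study, an adjusted p under 0.01 and a log2 fold change past 2, no member was lower in any line (edgeR, beside 3.5%, 1.24%, 1.39% and 3.31%), and none by DESeq2 on all groups. The 2 higher there by edgeR, SRSF12 and HNRNPCL1, were both in TCCSUP (9.43%, 8.81%, 11.4% and 14.2% of all tested genes in the 4 lines). HNRNPCL1 was tested only because of its counts in that same treated group, so its call adds no independent support. DESeq2 on all groups called SRSF12 in TCCSUP and HNRNPUL2-BSCL2 in RT112. The 18 members lower in all 4 lines, or 51.4% of those tested beside 6.01% of all tested genes (11% of those with at least 10 CPM), were SRSF1, SRSF2, SRSF3, SRSF4, SRSF5, SRSF7, SRSF10, HNRNPA1, HNRNPA3, HNRNPAB, HNRNPC, HNRNPDL, HNRNPH1, HNRNPK, HNRNPL, HNRNPM, HNRNPR and HNRNPUL1. Their log2 fold changes ran from -1.62 to -0.39, with standard errors of 0.112 to 0.192. Over all 35 tested members, both CM-1758 libraries lay below both controls for 27, 26, 26 and 25 in 253J, J82, RT112 and TCCSUP, beside 32.1%, 27.9%, 32.5% and 33.1% of all tested genes. Under library size alone 9 members were lower in all 4 lines (SRSF1, SRSF3, SRSF4, SRSF7, HNRNPA1, HNRNPDL, HNRNPH1, HNRNPL and HNRNPUL1). The values of all 18 stayed negative in each line under each alternative run. No member was higher in all 4 lines (edgeR, beside 6.69% of all tested genes).

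**Figure D1:**
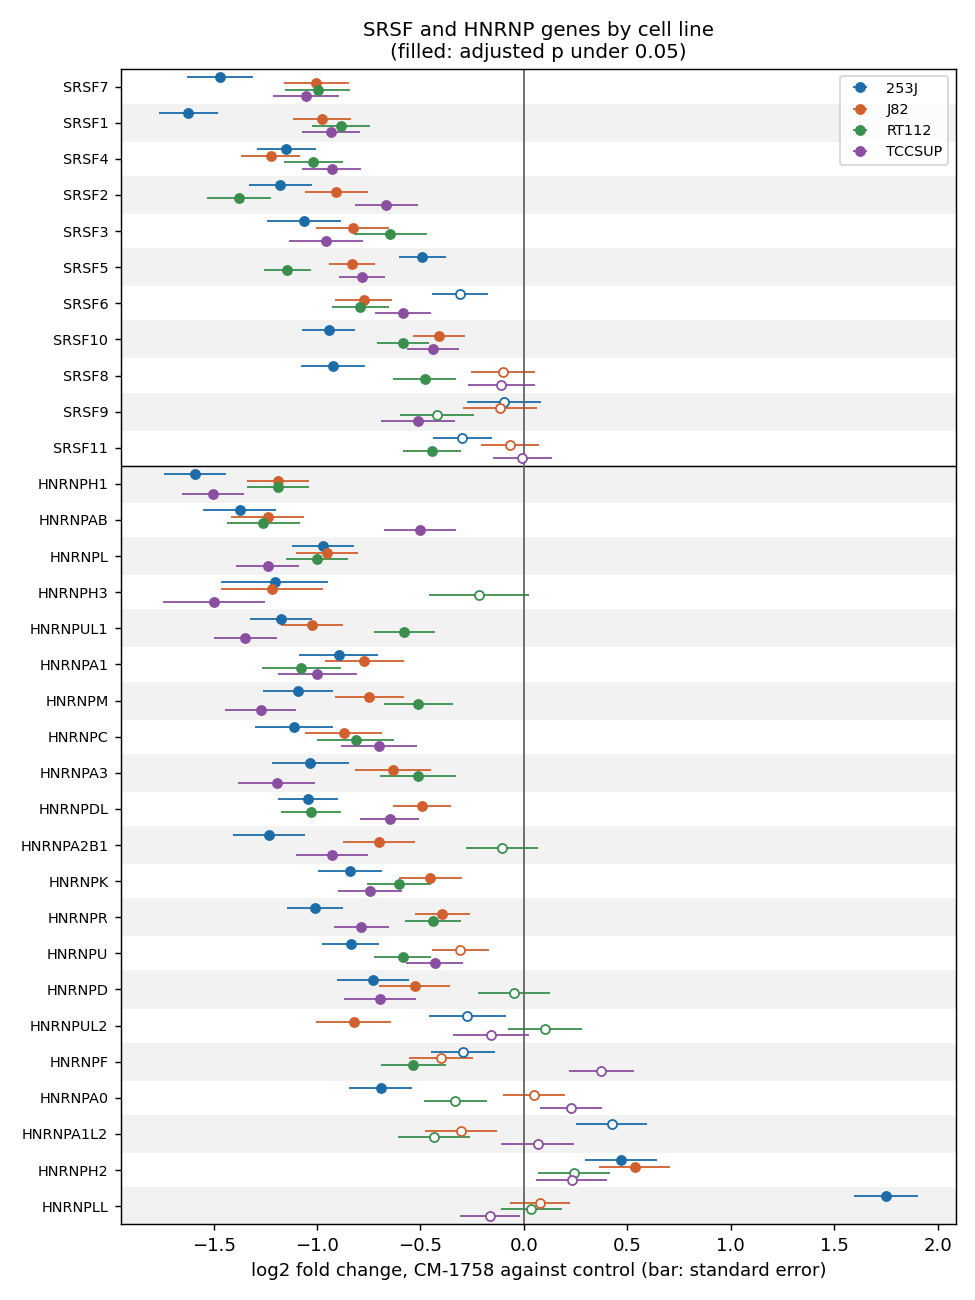
Log2 fold change of each SRSF and HNRNP gene, CM-1758 against control, with its standard error, in 253J, J82, RT112 and TCCSUP. Filled points have an edgeR adjusted p under 0.05. HNRNPH1 sat at -1.59 to -1.19 in the 4 lines, HNRNPH2 was at 0.23 to 0.54, and HNRNPLL stood alone at 1.75 in 253J. SRSF12, HNRNPCL1, HNRNPCL2 and HNRNPUL2-BSCL2 are left out for their low or erratic counts.

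Levels below are given in CPM on the TMM scale, with the 2 control libraries before the 2 CM-1758 libraries in each line. They are not set against each other between genes, since counts were not divided by length. Adjusted p-values come from edgeR's quasi-likelihood test over all tested genes.

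SRSF1, the founding SR protein and a known proto-oncogene, stood at 561 and 524 against 187 and 166 CPM in 253J, 456 and 450.5 against 263 and 229 in RT112, 417 and 513 against 248 and 225 in J82 and 374 and 395 against 201 and 202 in TCCSUP. Its log2 fold changes were -1.62 ± 0.14 in 253J, -0.88 ± 0.14 in RT112, -0.97 ± 0.14 in J82 and -0.93 ± 0.14 in TCCSUP, with adjusted p of 3.81e-07 to 1.28e-04. Each CM-1758 library lay below each control of its line, and the fall in 253J exceeded those in J82, RT112 and TCCSUP by 0.65, 0.74 and 0.69 on the log2 scale (edgeR adjusted p of the difference 0.0216, 0.0103 and 0.0164). SRSF7, which also couples splicing to mRNA export, had 277 and 225 against 97.0 and 84.3 CPM in 253J, 198 and 190.4 against 100.3 and 94.4 in RT112, 149 and 202 against 84.6 and 90.3 in J82 and 164 and 178 against 78.4 and 86.4 in TCCSUP. The groups stood clear of each other in each line, with log2 fold changes of -1.47 ± 0.16 in 253J, -0.997 ± 0.16 in RT112, -1.003 ± 0.16 in J82 and -1.05 ± 0.16 in TCCSUP and adjusted p of 2.63e-06 to 1.40e-04. SRSF3, the smallest SR protein and another export adaptor, ran at 324 and 240.0 against 149 and 121 CPM in 253J, 361 and 354 against 224 and 234 in RT112, 313 and 442 against 207 and 218 in J82 and 322 and 348 against 177 and 169 in TCCSUP. Its fall was -1.06 ± 0.18 in 253J, -0.65 ± 0.18 in RT112, -0.83 ± 0.18 in J82 and -0.95 ± 0.18 in TCCSUP on the log2 scale, the RT112 call being lost without RT112 CM-1758 replicate 1 (edgeR adjusted p 0.0506).

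SRSF2, the classical marker of nuclear speckles, was measured at 456 and 385 against 179 and 193 CPM in 253J, 461 and 413 against 168 and 169 in RT112, 314 and 339.5 against 193 and 156 in J82 and 312 and 306 against 217 and 173 in TCCSUP. It fell most in RT112, with log2 fold changes of -1.18 ± 0.15 in 253J, -1.38 ± 0.15 in RT112, -0.91 ± 0.15 in J82 and -0.67 ± 0.15 in TCCSUP (adjusted p 5.37e-06 to 0.00188), and the RT112 and TCCSUP changes differed by -0.71 (edgeR adjusted p 0.022). SRSF4, SRSF5 and SRSF6 form the branch of long SR proteins. SRSF4 had 51.3 and 47.4 against 24.2 and 20.4 CPM in 253J, 81.4 and 74.4 against 41.7 and 35.3 in RT112, 83.2 and 88.6 against 39.5 and 34.0 in J82 and 59.7 and 62.2 against 34.5 and 29.5 in TCCSUP, with the groups apart in each line. The log2 fold changes were -1.15 ± 0.14 in 253J, -1.02 ± 0.14 in RT112, -1.22 ± 0.14 in J82 and -0.93 ± 0.14 in TCCSUP, with adjusted p of 9.04e-06 to 7.12e-05, and a difference between lines was not found (interaction adjusted p 0.558). SRSF5 stood at 98.1 and 101 against 68.7 and 72.9 CPM in 253J, 193 and 180.4 against 84.6 and 84.6 in RT112, 133 and 130.1 against 76.1 and 72.0 in J82 and 129 and 124 against 74.2 and 72.8 in TCCSUP. It fell most in RT112 and least in 253J, at -0.49 ± 0.11 in 253J, -1.14 ± 0.11 in RT112, -0.83 ± 0.11 in J82 and -0.78 ± 0.11 in TCCSUP, and 253J and RT112 differed by 0.65 (edgeR adjusted p 0.00564). SRSF10, which turns into a splicing repressor when dephosphorylated, was read at 184 and 162 against 93.4 and 86.6 CPM in 253J, 202 and 201 against 132 and 136 in RT112, 220.0 and 249 against 177 and 176 in J82 and 248 and 217 against 171 and 172 in TCCSUP. Its changes were -0.94 ± 0.13 in 253J, -0.58 ± 0.13 in RT112, -0.41 ± 0.13 in J82 and -0.44 ± 0.13 in TCCSUP, with adjusted p of 2.07e-05 to 0.0165. The J82 call was lost without J82 control replicate 3 or either J82 CM-1758 library (edgeR adjusted p 0.0659 to 0.116), and the TCCSUP call without TCCSUP control replicate 1 (0.100).

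The other SRSF genes followed in part or not at all. SRSF6 was lower in J82, RT112 and TCCSUP, by -0.77, -0.79 and -0.58, and was at -0.31 ± 0.14 in 253J (edgeR adjusted p 0.0735). SRSF8, a copy of SRSF2 that arose by retrotransposition, stood at 26.2 and 27.1 against 16.1 and 12.1 CPM in 253J, 39.0 and 37.3 against 26.8 and 28.0 in RT112, 15.6 and 17.2 against 14.2 and 16.3 in J82 and 9.57 and 10.9 against 9.13 and 9.91 in TCCSUP. It was lower in 253J (-0.92 ± 0.15, edgeR adjusted p 0.000149) and RT112 (-0.48 ± 0.15, 0.0162), while in J82 and TCCSUP the values were -0.10 and -0.11. The 253J change differed from that in J82 by -0.82 and from that in TCCSUP by -0.81 (edgeR adjusted p 0.00999 and 0.0126), and the RT112 call was lost without any 1 of the 4 RT112 libraries (0.0516 to 0.0875). SRSF9 was called lower only in TCCSUP (-0.51, edgeR adjusted p 0.0258, 0.0608 to 0.137 when any 1 of the 4 TCCSUP libraries was left out) and had log2 fold changes of -0.09, -0.11 and -0.42 elsewhere. SRSF11 was called lower only in RT112 (-0.44, edgeR adjusted p 0.0178, lost without RT112 CM-1758 replicate 1 or control replicate 2 at 0.192 and 0.110) and ran from -0.30 to -0.01 in the other lines. Whether SRSF6, SRSF9 or SRSF11 differed between lines was not shown (interaction adjusted p 0.130, 0.362 and 0.212).

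SRSF12, a relative of SRSF10 that was nearly silent in 3 lines, went the other way. It held 55 and 73 counts in the 253J controls against 131 and 161 after CM-1758, or 1.99 and 2.80 against 5.19 and 5.43 CPM. The counts were 0 and 4 against 8 and 4 in RT112, 0 and 0 against 4 and 4 in J82, and 4 and 3 against 31 and 18 in TCCSUP. It was called higher in 253J (log2 fold change 1.15 ± 0.45, edgeR adjusted p 0.0452), J82 (adjusted p 0.0275) and TCCSUP (2.74 ± 0.67, adjusted p 0.00338), and not in RT112 (0.121). Set against 3 counts per control library, the J82 level was at least 1.25-fold higher. The 253J call was lost in 9 and the J82 call in 4 of the fits that left out 1 library, with adjusted p of 0.0502 to 0.231 and 0.0559 to 0.0997.

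**Figure D2:**
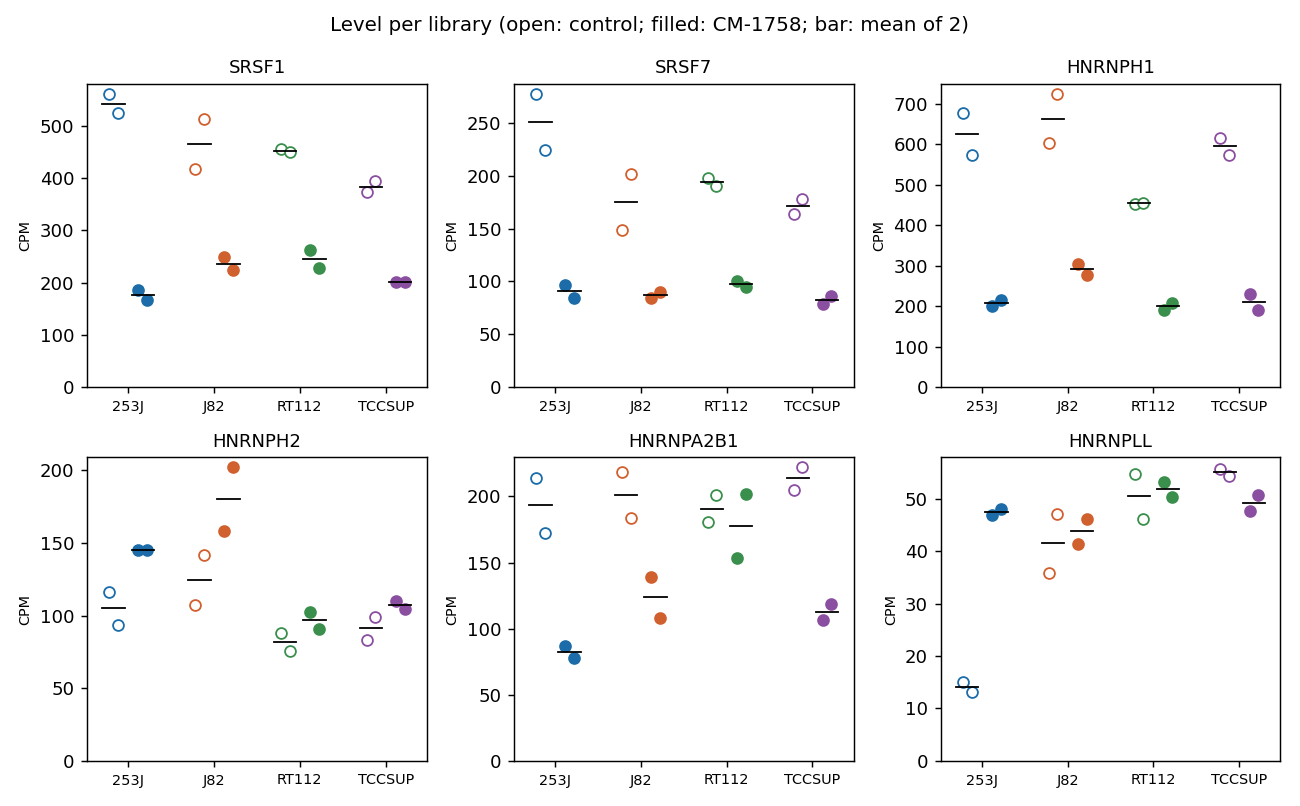
CPM of 6 members in each of the 16 libraries (open circles, control; filled circles, CM-1758; bars, mean of 2), on axes that start at 0. SRSF1, SRSF7 and HNRNPH1 drop in each line, both treated libraries of HNRNPH2 sit above its controls in each line, HNRNPA2B1 holds in RT112 at 153 and 202 CPM, and HNRNPLL climbs in 253J from 15.0 and 13.2 to 47.0 and 48.0 CPM.

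Of the A/B group of hnRNPs, HNRNPA1 is the best known splicing silencer and an antagonist of SRSF1. It stood at 708 and 512 against 364 and 293 CPM in 253J, 439.9 and 432 against 207 and 207 in RT112, 406 and 574 against 282 and 292 in J82 and 327 and 401 against 192 and 172 in TCCSUP. The log2 fold changes were -0.89 ± 0.19 in 253J, -1.08 ± 0.19 in RT112, -0.77 ± 0.19 in J82 and -0.999 ± 0.19 in TCCSUP (adjusted p 3.33e-04 to 0.00428), with no overlap of groups in any line. The J82 call was lost without J82 control replicate 3 (log2 fold change -0.50, edgeR adjusted p 0.0630). Counts on HNRNPA1 pseudogene names came to 5.88% to 12.9% of the HNRNPA1 count in control and 7.17% to 16.6% in CM-1758 libraries, and how reads shared with these copies were counted is not given in the sources used here. HNRNPA3, its close relative, had 75.1 and 65.7 against 32.5 and 36.3 CPM in 253J, 99.4 and 128 against 74.6 and 85.0 in RT112, 134 and 98.5 against 83.6 and 66.4 in J82 and 109 and 109.7 against 42.2 and 53.4 in TCCSUP. It changed by -1.03 ± 0.19 in 253J, -0.51 ± 0.18 in RT112, -0.63 ± 0.18 in J82 and -1.20 ± 0.19 in TCCSUP. The RT112 call was lost without RT112 control replicate 2 or either CM-1758 library (edgeR adjusted p 0.0559 to 0.273) and the J82 call without J82 control replicate 1 or CM-1758 replicate 3 (0.133 and 0.114).

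HNRNPA2B1, which also sorts RNA into vesicles, was called lower in each line but RT112. Its levels were 214 and 173 against 87.0 and 77.7 CPM in 253J, 180.4 and 201 against 153 and 202 in RT112, 218 and 184 against 139 and 108 in J82 and 205 and 222 against 106 and 119 in TCCSUP. The control means ran from 191 to 214 CPM, without a detected difference among lines (edgeR adjusted p 0.813). The RT112 groups overlapped, and the log2 fold changes were -1.23 ± 0.18 in 253J, -0.11 ± 0.17 in RT112, -0.70 ± 0.17 in J82 and -0.93 ± 0.17 in TCCSUP (adjusted p 3.44e-05, 0.661, 0.00443 and 4.24e-04). The RT112 change differed from 253J by 1.13 and from TCCSUP by 0.82 on the log2 scale (edgeR adjusted p 0.00283 and 0.0211). A difference between J82 and RT112 was not shown (-0.60, edgeR adjusted p 0.100). The J82 call did not hold without J82 CM-1758 replicate 3 (log2 fold change -0.53). HNRNPD, known as AUF1 and a regulator of the decay of AU-rich mRNAs, had the same outline. It was lower in 253J, J82 and TCCSUP, by -0.73, -0.53 and -0.69, and ran from 25.3 to 35.5 CPM in the RT112 libraries, with both controls inside the range of the treated pair (-0.05 ± 0.17). The 253J and RT112 changes differed by -0.68 (edgeR adjusted p 0.0486), although the test over all 4 lines gave 0.0881. RT112 was not shown to differ from J82 or TCCSUP in this gene (edgeR adjusted p 0.189 and 0.0634). The J82 call did not hold without J82 control replicate 1 or either CM-1758 library (log2 fold change -0.56 to -0.34).

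HNRNPDL, the close relative of HNRNPD, was instead lower in RT112 too, with 301 and 276 against 143 and 137 CPM in 253J, 207 and 194 against 99.4 and 97.2 in RT112, 236 and 309 against 186 and 201 in J82 and 259 and 236 against 166 and 149.8 in TCCSUP. The log2 fold changes were -1.04 ± 0.14 in 253J, -1.03 ± 0.14 in RT112, -0.49 ± 0.14 in J82 and -0.65 ± 0.14 in TCCSUP, and the J82 call was lost without J82 control replicate 3 or CM-1758 replicate 1 (edgeR adjusted p 0.153 and 0.126). HNRNPAB, a binder of RNA and of single-stranded DNA, stood at 172 and 122 against 62.6 and 50.6 CPM in 253J, 133 and 121 against 50.3 and 55.6 in RT112, 119.5 and 147 against 61.6 and 51.5 in J82 and 103 and 113 against 74.6 and 77.9 in TCCSUP. It fell by more than 1 on the log2 scale in 3 lines and less in TCCSUP, at -1.37 ± 0.18 in 253J, -1.26 ± 0.18 in RT112, -1.24 ± 0.18 in J82 and -0.50 ± 0.17 in TCCSUP. The TCCSUP change differed from those in 253J, J82 and RT112 by 0.87, 0.74 and 0.76 (edgeR adjusted p 0.0153, 0.0445 and 0.0328), and its own call was lost without TCCSUP control replicate 2 or either CM-1758 library (0.0770 to 0.129). HNRNPA0, a factor that stabilises AU-rich mRNAs, had 112 and 91.6 against 69.2 and 57.0 CPM in 253J, 97.3 and 87.4 against 76.2 and 70.6 in RT112, 74.7 and 84.7 against 74.4 and 90.5 in J82 and 79.6 and 87.9 against 102 and 94.4 in TCCSUP. It was called lower only in 253J (-0.69 ± 0.15, edgeR adjusted p 0.00142), with 0.05, -0.33 and 0.23 in J82, RT112 and TCCSUP. The 253J change differed from J82 by -0.74 and from TCCSUP by -0.92 (edgeR adjusted p 0.0164 and 0.00469). A difference from RT112 was not shown (-0.36, edgeR adjusted p 0.237). HNRNPA1L2, a near copy of HNRNPA1, was called in no line, at 0.42, -0.30, -0.43 and 0.07, and its reads cannot be told apart with certainty from those of HNRNPA1.

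HNRNPC packages nascent transcripts and binds tracts of uridines. It had 720.2 and 547 against 311 and 276 CPM in 253J, 626 and 564 against 355 and 323 in RT112, 539.8 and 811 against 351 and 388 in J82 and 453 and 505 against 296 and 294 in TCCSUP. The 2 groups stood apart in each line, with log2 fold changes of -1.11 ± 0.19 in 253J, -0.81 ± 0.19 in RT112, -0.87 ± 0.19 in J82 and -0.70 ± 0.19 in TCCSUP and adjusted p of 1.54e-04 to 0.00528. HNRNPK, the poly(C) binder with KH domains, was read at 712 and 544 against 364 and 337 CPM in 253J, 529 and 528 against 346 and 349 in RT112, 735 and 920.0 against 586 and 624 in J82 and 463 and 516 against 289.9 and 295 in TCCSUP. It changed by -0.84 ± 0.15 in 253J, -0.60 ± 0.15 in RT112, -0.45 ± 0.15 in J82 and -0.74 ± 0.15 in TCCSUP (adjusted p 3.33e-04 to 0.0271). The J82 call was lost without J82 control replicate 3 or either CM-1758 library (edgeR adjusted p 0.0619 to 0.224). HNRNPM, known for its part in splicing during epithelial to mesenchymal transition, stood at 118 and 79.9 against 50.6 and 42.2 CPM in 253J, 115 and 113 against 77.9 and 81.8 in RT112, 126 and 113 against 76.9 and 65.7 in J82 and 95.2 and 108 against 42.3 and 42.0 in TCCSUP. Its fall was deepest in TCCSUP, at -1.09 ± 0.17 in 253J, -0.51 ± 0.17 in RT112, -0.75 ± 0.17 in J82 and -1.27 ± 0.17 in TCCSUP, and RT112 and TCCSUP differed by 0.76 (edgeR adjusted p 0.0267, and 0.05003 over all 4 lines). The RT112 call was lost without any 1 of the 4 RT112 libraries (0.0650 to 0.103).

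HNRNPR, a relative of the translational regulator SYNCRIP, had 219 and 179 against 101 and 97.7 CPM in 253J, 204 and 196 against 152 and 143 in RT112, 245 and 290.2 against 211 and 196 in J82 and 279 and 271 against 162 and 156 in TCCSUP. The log2 fold changes were -1.01 ± 0.14 in 253J, -0.44 ± 0.13 in RT112, -0.39 ± 0.13 in J82 and -0.79 ± 0.13 in TCCSUP, and 253J differed from J82 by -0.61 and from RT112 by -0.57 (edgeR adjusted p 0.0232 and 0.0345). The J82 call was lost without J82 control replicate 3 or either CM-1758 library (0.0968 to 0.198) and the RT112 call without RT112 control replicate 1 or CM-1758 replicate 2 (0.0824 and 0.0933). HNRNPU, the scaffold attachment factor that binds RNA and chromatin, was lower in 253J, RT112 and TCCSUP, by -0.84, -0.59 and -0.43, and was at -0.31 ± 0.14 in J82 (edgeR adjusted p 0.0855). Its TCCSUP call was lost without TCCSUP control replicate 1 or CM-1758 replicate 2 (0.0887 and 0.110). HNRNPUL1, a relative of HNRNPU with a role in the DNA damage response, stood at 88.4 and 82.5 against 41.4 and 34.3 CPM in 253J, 108 and 108 against 70.3 and 74.5 in RT112, 116 and 124 against 64.4 and 53.6 in J82 and 71.8 and 77.7 against 25.6 and 33.2 in TCCSUP. It fell by -1.17 ± 0.15 in 253J, -0.58 ± 0.15 in RT112, -1.02 ± 0.15 in J82 and -1.35 ± 0.15 in TCCSUP (adjusted p 4.04e-06 to 0.00485), less in RT112 than in 253J by 0.60 or TCCSUP by 0.77 (edgeR adjusted p 0.0433 and 0.013). HNRNPUL2 was called lower only in J82 (-0.82 ± 0.18, edgeR adjusted p 0.00188), against -0.27, 0.10 and -0.16 in 253J, RT112 and TCCSUP. J82 differed from RT112 by -0.93 (edgeR adjusted p 0.0163) and was not shown to differ from 253J or TCCSUP (0.130 and 0.0797).

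The pair HNRNPL and HNRNPLL bind CA-rich RNA and are best known together from the alternative splicing of CD45 in T cells. HNRNPL had 259 and 223 against 129 and 117 CPM in 253J, 247 and 248 against 133 and 115 in RT112, 236 and 314 against 150.3 and 134 in J82 and 204 and 207 against 87.9 and 86.5 in TCCSUP. It was lower in each line, at -0.97 ± 0.15 in 253J, -1.001 ± 0.15 in RT112, -0.95 ± 0.15 in J82 and -1.24 ± 0.15 in TCCSUP (adjusted p 9.26e-06 to 1.48e-04, interaction 0.597). HNRNPLL stood at 15.0 and 13.2 against 47.0 and 48.0 CPM in 253J, 54.8 and 46.2 against 53.2 and 50.4 in RT112, 35.8 and 47.1 against 41.3 and 46.2 in J82 and 55.7 and 54.4 against 47.6 and 50.7 in TCCSUP. The 253J controls were far below the other controls, and both CM-1758 libraries of 253J reached the level that the other lines held with or without the drug. The log2 fold changes were 1.75 ± 0.15 in 253J, 0.04 ± 0.15 in RT112, 0.08 ± 0.15 in J82 and -0.16 ± 0.15 in TCCSUP (adjusted p 3.54e-07, 0.886, 0.728 and 0.361). The 253J change exceeded those in J82, RT112 and TCCSUP by 1.67, 1.71 and 1.91 (edgeR adjusted p 3.24e-05, 2.56e-05 and 9.40e-06), the clearest difference between lines of any member (interaction adjusted p 1.06e-05).

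The H/F group binds runs of guanosines. HNRNPH1 fell in each line and had the lowest mean change of the 35 members. It stood at 677 and 573 against 200.5 and 215 CPM in 253J, 452 and 456 against 191 and 208 in RT112, 603 and 723 against 304 and 278 in J82 and 616 and 574 against 229 and 191 in TCCSUP. The log2 fold changes were -1.59 ± 0.15 in 253J, -1.19 ± 0.15 in RT112, -1.19 ± 0.15 in J82 and -1.50 ± 0.15 in TCCSUP (adjusted p 7.31e-07 to 1.76e-05), and it was also the 1 member lower by at least 2-fold in all 4 lines. HNRNPH2, its close relative on the X chromosome, had 117 and 93.3 against 145 and 145 CPM in 253J, 88.1 and 75.5 against 103 and 91.0 in RT112, 107 and 142 against 158 and 203 in J82 and 83.3 and 99.1 against 109.8 and 104 in TCCSUP. In this gene both treated libraries lay above both controls in each line, and it was called higher in 253J (0.47 ± 0.17, edgeR adjusted p 0.0335) and J82 (0.54 ± 0.17, 0.0208) but not in RT112 (0.24, 0.266) or TCCSUP (0.23, 0.277). The share of all tested genes with treated libraries above controls was 40.9%, 34.8%, 41.8% and 45.4% in 253J, J82, RT112 and TCCSUP. The 253J call was lost without 253J control replicate 3 or either CM-1758 library (0.0965 to 0.261), and the J82 call without J82 control replicate 1 or CM-1758 replicate 3 (0.176 and 0.200).

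Because HNRNPH1 and HNRNPH2 are counted in the same library, their ratio does not depend on the scaling of libraries. There were 5.81 and 6.14 HNRNPH1 counts per HNRNPH2 count in the 253J controls and 1.38 and 1.48 after CM-1758. The ratio went from 5.14 and 6.04 to 1.86 and 2.28 in RT112, from 5.62 and 5.10 to 1.92 and 1.37 in J82, and from 7.40 and 5.80 to 2.09 and 1.83 in TCCSUP. All 8 control libraries lay between 5.10 and 7.40 and all 8 treated libraries between 1.37 and 2.28, and the mean ratio fell 4.18-fold, 3.26-fold, 2.70-fold and 3.37-fold in 253J, J82, RT112 and TCCSUP. For HNRNPL over HNRNPLL the control ratios differed between lines, from 17.2 and 16.9 in 253J to 3.66 and 3.82 in TCCSUP, and the treated ratios were 2.75 and 2.43 in 253J and 1.85 and 1.71 in TCCSUP. Reads of the near-identical parts of HNRNPH1 and HNRNPH2 could have been split between them in counting.

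**Figure D3:**
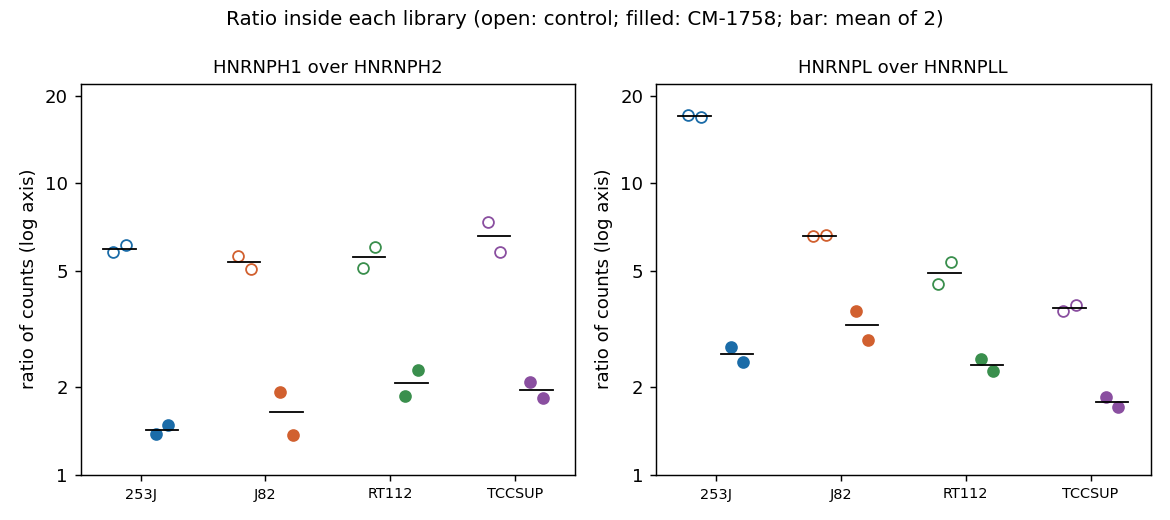
Ratio of counts inside each library, HNRNPH1 over HNRNPH2 (left) and HNRNPL over HNRNPLL (right), on a log axis (open circles, control; filled circles, CM-1758; bars, mean of 2). For HNRNPH1 over HNRNPH2 the 8 control libraries, at 5.10 to 7.40, lie above the 8 CM-1758 libraries, at 1.37 to 2.28. The HNRNPL over HNRNPLL ratio is highest in the 253J controls and falls in each line.

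HNRNPH3 lacks the first of the RNA-binding domains of its relatives. It was lower in 253J, J82 and TCCSUP by -1.20, -1.22 and -1.50, and in RT112 stood at 23.2 and 25.6 against 16.7 and 25.3 CPM (-0.22 ± 0.24). RT112 differed from 253J by 0.99, from J82 by 1.0 and from TCCSUP by 1.28 on the log2 scale (edgeR adjusted p 0.0469, 0.0499 and 0.0117). HNRNPF, the remaining member of the group, had 384 and 302 against 284 and 275 CPM in 253J, 477 and 440.3 against 328 and 306 in RT112, 342 and 445 against 293 and 303 in J82 and 339.6 and 368 against 432 and 486 in TCCSUP. It was lower in RT112 (-0.53 ± 0.16, edgeR adjusted p 0.0112), at -0.29 in 253J and -0.40 in J82 without a call, and at 0.38 ± 0.16 in TCCSUP (0.0550). TCCSUP differed from 253J by 0.67, from J82 by 0.78 and from RT112 by 0.91 (edgeR adjusted p 0.034, 0.0203 and 0.00631). The RT112 call was lost without RT112 control replicate 1 or CM-1758 replicate 2 (0.0775 and 0.0770), and under library size alone HNRNPF was called higher in TCCSUP (log2 fold change 0.69, adjusted p 0.00121).

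The members with few or erratic counts complete the set. HNRNPCL1, a copy of HNRNPC without introns, had no count in any of the 8 controls and 12 and 26 counts in the TCCSUP CM-1758 libraries, at least 6.30-fold higher than a floor of 3 counts per control library (edgeR adjusted p 0.00636). Its other treated libraries held 0 to 4 counts. HNRNPCL1 thus passed the count filter only through the group where it was high, so its adjusted p is no independent support. HNRNPCL2 was not tested, with 0 in all controls and at most 11 counts. HNRNPUL2-BSCL2, a readthrough of HNRNPUL2 into its neighbour, held 0 and 597 counts in the 253J controls and 278 and 0 after CM-1758, 0 and 0 against 0 and 260 in RT112, 55 and 193 against 416 and 437 in J82, and 330 and 648 against 0 and 415 in TCCSUP. Replicates of 1 group thus ran as far apart as 0 and 597 counts, its reads overlap those of HNRNPUL2, and edgeR on all groups called it in no line (adjusted p 0.109 to 0.679), whereas edgeR on each line alone called it higher in J82 and RT112.

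The summed level of each family fell in each line. The 12 SRSF genes together stood at 2405 and 2084 CPM in the 253J controls against 1158 and 1092 after CM-1758, 2502 and 2428 against 1367 and 1359 in RT112, 2161 and 2547 against 1444 and 1423 in J82, and 2025 and 2041 against 1288 and 1216 in TCCSUP. This was a mean fall of 49.9%, 44.7%, 39.1% and 38.4%. The 24 HNRNP genes together fell by 46.0%, 36.7%, 33.7% and 35.9%, from 5276 ± 826 to 2849 ± 133 CPM in 253J, from 4766 ± 103 to 3017 ± 17.1 in RT112, from 5632 ± 735 to 3733 ± 29.2 in J82 and from 4640 ± 133 to 2974 ± 24.5 in TCCSUP (SD, n = 2). As a share of all counts, the 36 members took 0.593% to 0.757% of a control library and 0.434% to 0.506% of a treated one, with no overlap. The summed levels are on the TMM scale, and the shares, which are not, fell less in each line. In TCCSUP the shares were 0.593% and 0.614% in the controls against 0.477% and 0.471% after CM-1758. The sums weigh the most abundant members most, and they carry no test.

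**Figure D4:**
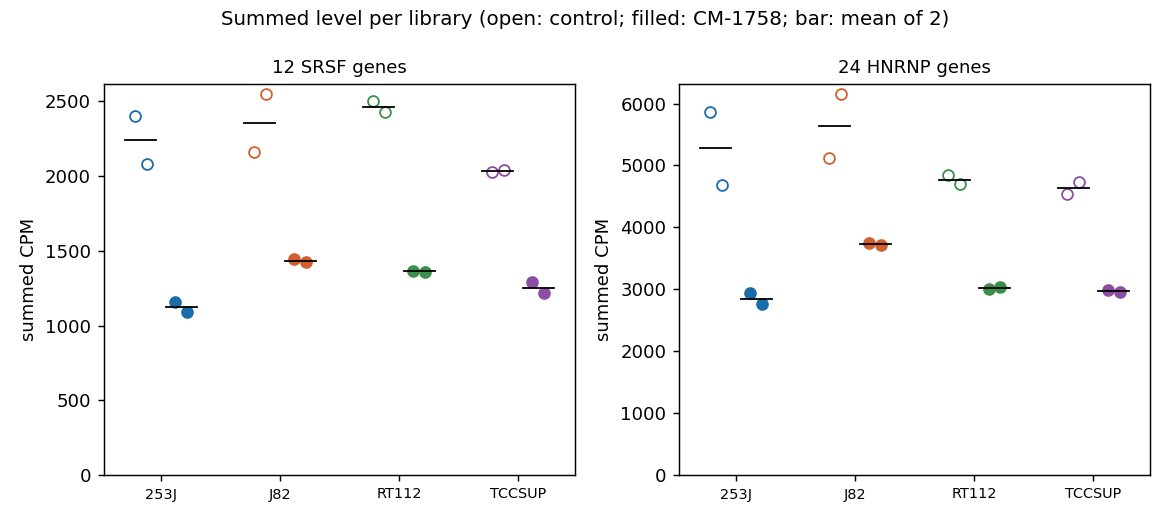
Summed CPM of the 12 SRSF genes (left) and the 24 HNRNP genes (right) in each of the 16 libraries (open circles, control; filled circles, CM-1758; bars, mean of 2), on axes that start at 0. Each treated library lies below each control library of its line, and the mean SRSF sum falls by 38.4% to 49.9%.

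A further question was whether the lines differed. Before the drug, 24 of the 35 members, or 68.6%, differed among the control lines (edgeR, beside 78.8% of all tested genes). The widest ranges were those of HNRNPLL, 3.90-fold from 253J at 14.1 CPM to TCCSUP at 55.0, SRSF8, 3.72-fold from TCCSUP at 10.3 to RT112 at 38.2, HNRNPUL2, 2.97-fold from 253J at 21.4 to J82 at 63.4, and HNRNPH3, 2.47-fold from 253J at 14.7 to TCCSUP at 36.4. Apart from SRSF12 and the genes at 0, the other members varied by less than 2-fold. The effect of CM-1758 differed between lines for 14 of 35 members, or 40%, beside 51.9% of all tested genes and 69.9% of those with at least 10 CPM. Each line had its own dose, so a difference between lines cannot be told apart from one of dose. Of the 18 members lower in all lines, 6 were among the 14 (SRSF1, SRSF2, SRSF5, HNRNPAB, HNRNPR and HNRNPUL1). For the remaining 12, a p that misses the threshold does not show that the lines responded alike.

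The annotation gives these genes many transcripts that a gene-level count adds together. In GENCODE v29, 12 of 12 SRSF genes and 14 of 23 tested HNRNP genes (60.9%) have at least 1 transcript marked for nonsense-mediated decay, beside 39.3% of the 16077 tested protein-coding genes. HNRNPH1 has 50 transcripts, of which 26 are coding, 4 marked for decay and 16 with a retained intron, whereas HNRNPH2 has 1 transcript. SRSF7 has 6 decay transcripts among 12 and HNRNPU has 9 among 31. How the reads were divided among the transcripts was not analysed here.

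Other lists of splicing proteins were read beside the same shares of lower genes, 35.2%, 30.2%, 33% and 36.2% of those with at least 10 CPM in 253J, J82, RT112 and TCCSUP, and no test compared the lists. The shares of higher genes among those with at least 10 CPM were 29.5%, 23.9%, 24% and 24.5%. Of 17 SR-related proteins, which share the arginine and serine rich domains, 11, 14, 12 and 9 were lower in 253J, J82, RT112 and TCCSUP, and 1, 1, 1 and 2 higher, with medians of -0.60, -0.66, -0.59 and -0.45. Those with the largest mean falls were RBM39 (-1.45, -0.75, -0.91 and -0.97 on the log2 scale in 253J, J82, RT112 and TCCSUP), SREK1 (-1.34, -0.73, -1.12 and -0.73) and PNN (-1.33, -0.62, -1.10 and -0.43). The neural microexon factors SRRM4 and SRRM3 were at the other end. SRRM4 had no count in 7 controls and 2 in the other, and reached 47 and 74 counts in the treated TCCSUP libraries. It passed the count filter only through CM-1758 libraries, so its rise is no independent support. SRRM3 had 4 and 0 counts in the J82 controls against 172 and 219 after CM-1758 (edgeR adjusted p 1.59e-07). SRRM2, a core protein of nuclear speckles, was called lower in J82 (-0.96, edgeR adjusted p 0.0352) and at 0.58, 0.79 and 0.23 in the other lines without a call. The J82 groups of SRRM2 overlapped, with 89.0 and 36.3 CPM in the controls against 38.5 and 25.8 after CM-1758.

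Of the 10 kinases and importer that act on SR proteins, 4, 4, 5 and 3 were lower in 253J, J82, RT112 and TCCSUP, and 1 was higher, CLK3 in TCCSUP (0.53, edgeR adjusted p 0.00291). CLK1, which phosphorylates SR proteins in the nucleus, went from a mean of 136 to 34.0 CPM in 253J, 143 to 60.1 in RT112, 111 to 83.6 in J82 and 100 to 35.4 in TCCSUP. Its fall passed the test in 253J, RT112 and TCCSUP and not in J82 (edgeR adjusted p 0.0729). CLK4 was lower in each line, by -0.95, -0.67, -0.54 and -0.49. PRPF4B was lower in 253J and RT112 (-0.64 and -0.60), CLK2 in J82 and RT112 (-0.74 and -0.56) and DYRK1A in J82 (-0.33).

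The core snRNP proteins were split. Of 26 proteins of U1, U2 and the Sm ring, 8, 11, 11 and 12 were lower and 4, 1, 0 and 1 higher, with medians of -0.27, -0.44, -0.31 and -0.27. SNRPA, a protein of the U1 particle, was lower by -1.46, -1.31, -1.52 and -0.99, U2AF2, the large subunit that reads the polypyrimidine tract, by -1.06, -1.45, -1.19 and -1.43, and SF3B3 by -1.19, -0.95, -1.24 and -0.84. SF3B5 was higher in 253J, J82 and TCCSUP (1.08, 0.84 and 0.61), and SNRPN and SF3B6 in 253J (1.42 and 0.94). Of 29 proteins of the tri-snRNP and the complex around PRPF19, 9, 14, 15 and 8 were lower and 9, 0, 1 and 2 higher. The shares lower, 31% in 253J and 27.6% in TCCSUP, were below those of all genes with at least 10 CPM, and 48.3% in J82 and 51.7% in RT112 were above them. LSM7 and SNRNP40 were lower in each line (-1.08, -0.92, -1.65 and -1.23 for LSM7), LSM3 in 3 lines, while BCAS2 was higher in 253J and TCCSUP (1.29 and 0.64) and TXNL4A and PLRG1 in 253J (0.72 and 0.69).

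Other regulators of splicing moved in both directions. Of 42 tested of 44, 16, 19, 13 and 22 were lower and 9, 7, 13 and 9 higher in 253J, J82, RT112 and TCCSUP. The muscleblind protein MBNL3 fell by -3.95, -1.23, -2.69 and -2.21, its relative MBNL1 by -1.42 to -0.50, and SYNCRIP, the relative of HNRNPR, by -1.56, -0.99, -1.03 and -1.24. NOVA2, a neuronal factor, had no count in any control and 20 and 17, 0 and 6, 104 and 142, and 52 and 67 counts in the treated libraries of the 4 lines, which is at least 6.11-fold, 47.5-fold and 19.6-fold above a floor of 3 counts per library in 253J, RT112 and TCCSUP. CELF5 rose in each line, from 0 to 35 and 66 counts in J82 (at least 15.6-fold) and from 0 to 73 and 55 in TCCSUP (at least 21.0-fold). PCBP3, a poly(C) binder related to HNRNPK, rose in each line too, from 0 to 120 and 107 counts in 253J (at least 37.4-fold). NOVA2 and CELF5 passed the count filter only through CM-1758 libraries, where they were high. Their rises, also where counted as higher above, are therefore no independent support.

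**Figure D5:**
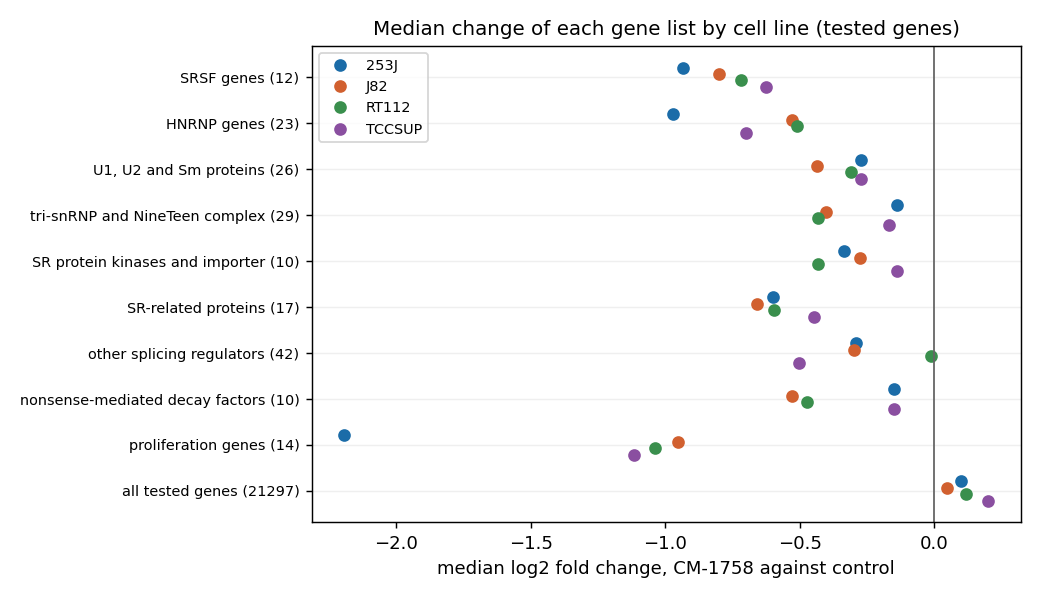
Median log2 fold change, CM-1758 against control, of the tested genes of each list in each line, with the number of genes in brackets. The SRSF medians lie between -0.93 and -0.62 and the HNRNP medians between -0.97 and -0.51, those of all 21297 tested genes between 0.05 and 0.20, and those of the proliferation genes furthest to the left.

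Of 10 nonsense-mediated decay factors, 4, 6, 6 and 2 were lower and 1, 0, 2 and 0 higher. The shares lower were 40%, 60%, 60% and 20%, beside 35.2%, 30.2%, 33% and 36.2% of tested genes with at least 10 CPM. SMG9 (-1.73, -1.46, -1.02 and -1.63) and SMG5 (-0.45, -0.98, -0.77 and -0.99) were lower in each line and UPF3A in 253J, J82 and RT112, whereas SMG1 was higher in RT112 (0.76). SMG6 was higher in 253J (0.70) and lower in J82 (-0.55). Proliferation genes fell beside the splicing factors. Of 14, 14, 13, 8 and 8 were lower in 253J, J82, RT112 and TCCSUP, with medians of -2.19, -0.95, -1.04 and -1.11, and 2 were higher in TCCSUP, the replication licensing genes MCM6 (0.48) and MCM2 (0.54). MKI67 went from 213 to 29.7 CPM in 253J, from 209 to 58.4 in J82 and from 363 to 72.3 in TCCSUP, and from 341 to 300 in RT112 (edgeR adjusted p 0.730). AURKB fell in 253J, J82 and TCCSUP (-2.47, -1.92 and -2.78) and CCNA2 in each line (-2.22, -1.64, -1.09 and -2.85), while PCNA was lower in 3 lines and not in TCCSUP (-0.16). The gene MYC was lower in 253J and RT112 (-1.08 and -1.53) and at 0.37 in J82 and -0.41 in TCCSUP (edgeR adjusted p 0.103 and 0.0630). The part of proliferation or of MYC in the fall of the splicing factors was not tested.

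Markers of cell identity were read too. Of the 16 urothelial and epithelial markers, 4, 1, 5 and 6 were lower and 4, 6, 2 and 5 higher in 253J, J82, RT112 and TCCSUP. Among all tested genes, 22.4%, 18.5%, 20.2% and 22.1% were lower and 28.8%, 24%, 27.4% and 32% higher in the same order. The shares of these markers lower were 25%, 6.25%, 31.2% and 37.5%, and no test compared them with all genes. KRT7 was lower in J82 and RT112 (-1.82 and -0.91) and FOXA1 lower in 253J, RT112 and TCCSUP (-1.74, -1.02 and -1.36), KRT5 fell in RT112 (-0.86), and KRT20 was higher in each line, from 6.52 to 17.3 CPM in RT112. TP63 was higher in 253J and TCCSUP, from 0.113 to 9.43 and 0.832 to 3.61 CPM. Of 6 tested markers of other cell types, the muscle gene DES rose in each line, to 3.50, 5.00, 6.44 and 9.06 CPM, and the macrophage gene CD68 was higher in 253J (2.08) and lower in J82 (-1.92). DES passed the count filter only through CM-1758 libraries, so its rise is no independent support. The part of these changes in the members' values was not tested.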

How the data were processed

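RNA was sequenced after depletion of ribosomal RNA (stranded total RNA libraries) in 16 libraries of 4 lines. The authors deposited 1 matrix of raw counts per gene symbol. Per the labels, the submitters' processing notes name HISAT2, StringTie and GRCh37, without versions or roles, and the counting tool and annotation are not given in the sources used here. Counts were tested with edgeR 4.0.16 (R 4.3.3, quasi-likelihood F test, TMM factors, filterByExpr over 8 groups, 21297 genes tested), in 1 model with a coefficient for each line and treatment, which gave 8 residual degrees of freedom. Contrasts were CM-1758 minus control in each line, their differences between lines, and differences among control lines, adjusted by Benjamini-Hochberg over all tested genes. DESeq2 1.42.0 served as an alternative to the edgeR counts test, and the pipeline was tested on simulated data. Total counts per library ran from 22506431 to 32537104, and CPM values carry counting error beside the spread of replicates. The studied genes and all gene lists were chosen with earlier results of these data known. Values per library are given for members called the same way in all 4 lines, those called in opposite directions, the 5 with the smallest interaction p, and the 3 members at each end of the mean change, and up to 3 genes from each end of each other list were named among those called in at least 1 line. One result that this rule would name is not reported here. The share of all genes with at least 10 CPM was added after seeing the data. Alternatives were RLE factors, library size alone, TMM without 7 small noncoding RNA genes, other filters, a replicate block, fits of each line alone, thinning to 22506431 counts, stricter calls and leaving out each library. Promoter windows came from RefSeq (GRCh38.p14) and transcript types from GENCODE v29, matched by symbol.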

Additional observations from a re-analysis of the deposited data

Results flagged for a closer look

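In 14 members the effect of CM-1758 differed between the 4 lines by the edgeR interaction F test with Benjamini-Hochberg adjustment. The adjusted p was 1.06e-05 for HNRNPLL, which was higher only in 253J. It was 0.00798 for HNRNPA2B1, whose RT112 libraries overlapped, and 0.0247 for HNRNPH3, which was not called in RT112 (-0.22 ± 0.24) and whose libraries overlapped there. It was 0.00887 for HNRNPA0, called lower only in 253J, and 0.012 for HNRNPF, at -0.53 in RT112 and 0.38 in TCCSUP. For the SRSF genes it was 0.0147 for SRSF8, 0.0152 for SRSF1, 0.0196 for SRSF5 and 0.0471 for SRSF2. It was 0.026 for HNRNPAB, 0.0296 for HNRNPA1L2, 0.0308 for HNRNPUL1, 0.0342 for HNRNPR and 0.0349 for HNRNPUL2. Groups of 2 libraries were too small to look for a single library that stood apart.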

How the results depend on the processing

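No value of a member or count turned its direction under any alternative among those past the threshold. The calls at 2-fold gave 15, 6, 8 and 7 members lower in 253J, J82, RT112 and TCCSUP, 1 lower in all 4 lines (HNRNPH1) and 1 higher in J82 (SRSF12). That SRSF12 call rested on 0 and 0 against 4 and 4 counts, at least 1.25-fold above the floor of 3 counts. At the thresholds of the study (adjusted p under 0.01 and a log2 fold change past 2), 0 members were lower in each line or in all 4, and 0 were higher in 253J or J82. With library size alone, 9 were lower in all 4 lines and 5 were higher in TCCSUP. In J82, 1 member was higher with at least 10 counts in every library and with the replicate block (HNRNPH2 in each), and 1 by DESeq2 or edgeR on each line alone (HNRNPUL2-BSCL2). In RT112, 1 was higher (HNRNPUL2-BSCL2) with the replicate block, DESeq2 on all groups and edgeR on each line alone. The causes were not tested. The number lower in all 4 lines was 12 to 19 in the other fits at the same threshold that kept all libraries, and 6 members (SRSF1, SRSF4, SRSF7, HNRNPH1, HNRNPL and HNRNPUL1) were among them in every fit at that threshold.

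Leaving out 1 library at a time gave 24 to 25 members lower in 253J, 18 to 25 in RT112, 17 to 24 in J82, 21 to 24 in TCCSUP and 13 to 19 in all 4 lines. Members higher numbered 1 to 4 in 253J (1 without 253J control replicate 3 or CM-1758 replicate 3), 0 to 2 in J82 (0 without J82 control replicate 1 or CM-1758 replicate 3, 1 without either of the others), 0 to 1 in RT112 (1, SRSF12, without RT112 control replicate 2) and 2 to 3 in TCCSUP, and 0 to 1 were higher in all 4 lines (1, SRSF12, without RT112 control replicate 2). Members whose effect differed between lines numbered 7 to 17 (7 without RT112 control replicate 1 or CM-1758 replicate 2, 8 without 253J CM-1758 replicate 3, TCCSUP control replicate 2 or CM-1758 replicate 1, 9 without RT112 control replicate 2), and 18 to 28 differed between control lines. The lone library of an arm was then assumed to vary like the other groups. The deviations of same-numbered libraries correlated at 0.0529, 0.218, 0.0427 and 0.0173 in 253J, J82, RT112 and TCCSUP. The numbers were not taken to pair the samples, but low correlations over all tested genes do not exclude pairing. In 253J the 2 arms shared only 1 number. The replicate block, with 19 members lower in all 4 lines and 19 that differed between lines, moved no count of lower calls by over 1.5 times. With 2 libraries a group, the smallest fall called lower was -0.39 on the log2 scale.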
